A study of Arabidopsis thaliana and Marchantia polymorpha with 6 samples.

Results

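BBX28 (AT4G27310), BBX29 (AT5G54470), BBX30 (AT4G15248), BBX31 (AT3G21890) and BBX32 (AT3G21150) are 5 Arabidopsis thaliana genes for B-box proteins with a single B-box. They were taken by locus identifier, and all 5 were found among the 27444 protein-coding genes of the nuclear chromosomes. The question asked of them was where recombinant AtPIF4 and AtHY5 had a binding event inside the gene or within 2000 bp of either end.

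A B-box is a small zinc-binding fold through which proteins hold one another, and the B-box family of plants acts largely in light signalling. Members with a single B-box and no DNA-binding domain of their own are known for working through partners. BBX28 and BBX29 are known to bind the HY5 protein and lower its activity. BBX30 and BBX31, also called miP1b and miP1a, are small proteins that act with CONSTANS and a TOPLESS co-repressor to delay flowering, and they are known to be repressed by HY5. BBX32 is known to act against light-driven seedling development. HY5 is a bZIP factor that favours development in light, while PIF4 is a bHLH factor that favours growth in warmth and shade. Both are known to bind G-box elements.

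The binding was measured by DAP-seq, in which a purified protein is offered bare genomic DNA in a tube. Fragments averaging 200 bp, prepared from Col-0 seedlings of Arabidopsis at 10 days of age, were held by AtPIF4 or by AtHY5 made in E. coli and fixed to amylose beads. The DNA carried no chromatin, and neither protein had its usual plant partners. Each protein had 1 library, so no value below has a replicate error, no comparison has a test of replicated conditions, and the depth of each library is unknown. The AtPIF4 list holds 6699 events and the AtHY5 list 16825. A score given by the authors' caller accompanies each event, in a unit that is not stated, and it was used only to rank events within a list. The input libraries were not analysed here.

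All 5 genes had an AtHY5 event in this window, while AtPIF4 events were found at BBX28 and BBX29 and at none of the other 3. Among all protein-coding genes, 59.9% had an AtHY5 event by the same rule (95% Wilson interval 59.3 to 60.5, counting error only) and 31.5% had an AtPIF4 event (31.0 to 32.1). The 2 of 5 genes with AtPIF4 thus stand near the share of all genes. Events of both proteins were present at 2 of the 5 genes, BBX28 and BBX29, against 25.2% of all genes. At both of these genes an AtPIF4 centre lay within 100 bp of an AtHY5 centre, which was the case for 16.7% of all genes. AtHY5 without AtPIF4 was the state of BBX30, BBX31 and BBX32 and of 34.8% of all genes. None of the 5 had AtPIF4 alone or neither protein.

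The 5 genes are short, from 642 bp for BBX30 to 1519 bp for BBX28, and a longer gene has a longer window. Among the 6505 protein-coding genes in that range of length, 29.5% had an AtPIF4 event, 56.5% an AtHY5 event, 23.0% both, and 16.2% a pair within 100 bp. These shares differ little from those over all genes.

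**Figure D1:**
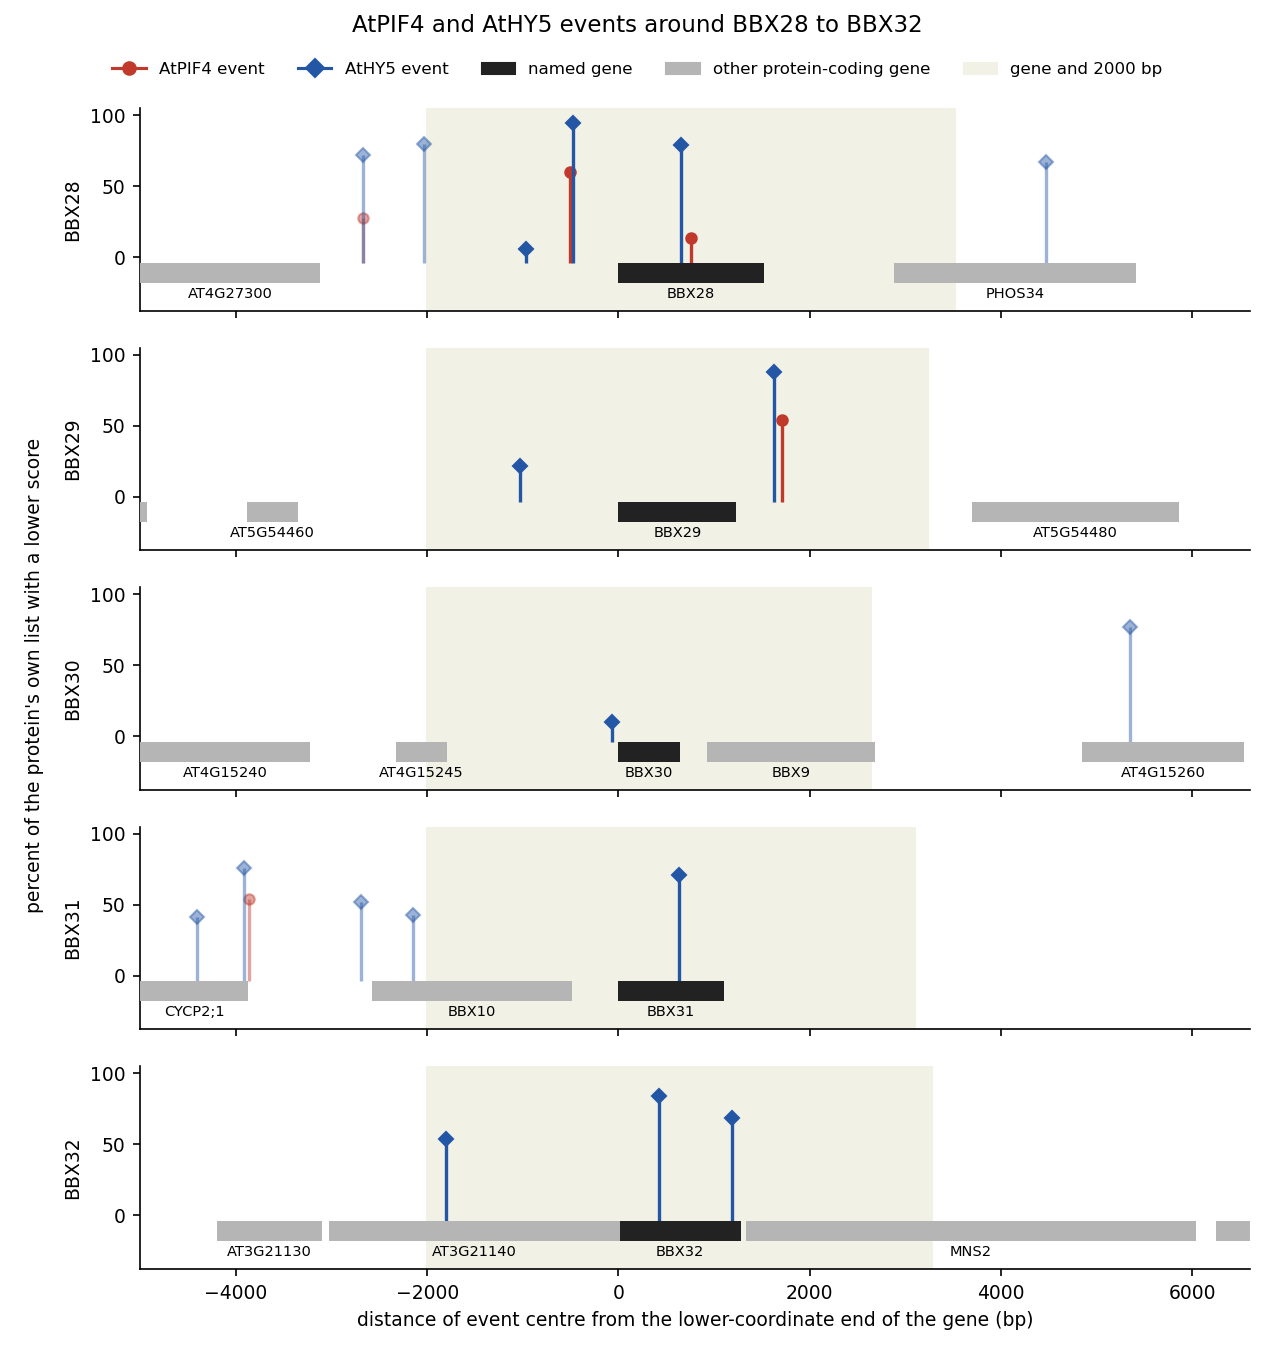
Each panel shows 1 gene (black bar), other protein-coding genes (grey bars) and event centres by their distance in bp from the gene's lower-coordinate end. The height of a mark is the percent of that protein's list with a lower score, and paler marks lie outside the shaded window of the gene and 2000 bp. AtPIF4 events stand inside the window of BBX28 and BBX29 only, each close to an AtHY5 event.

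Together the windows held 3 AtPIF4 events and 10 AtHY5 events, a mean of 0.600 and 2 per gene, against 0.407 and 1.05 over all protein-coding genes. The median was 0 AtPIF4 events and 2 AtHY5 events in the 5 genes, and 0 and 1 over all genes. Of the events at the 5 genes, 1 of 3 for AtPIF4 and 4 of 10 for AtHY5 had their centre inside the gene. The AtHY5 centres beyond a gene end lay between 71 bp (BBX30) and 1805 bp (BBX32) away. The gene table used gives no strand and no exons, so gene ends are called lower and higher by coordinate, and promoter, intron and untranslated region were not separated.

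BBX28, on chromosome 4, was the richest of the 5, with 2 AtPIF4 and 3 AtHY5 events. Its first AtPIF4 event, at 13674927 to 13675126 in the coordinates of the lists (build TAIR10, per the submitters' processing notes), was centred 511 bp beyond the lower end of the gene. That event had a score of 165, higher than 60.2% of the AtPIF4 list. The AtHY5 event beside it, at 13674962 to 13675161, was centred 476 bp beyond the same end. Its score of 503 was higher than 94.7% of the AtHY5 list, and no other AtHY5 event at the 5 genes stood as high. The centres were 35 bp apart, so the intervals of the events shared 165 of their 200 bp.

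The second pair at BBX28 lay near the middle of the gene. AtPIF4 had an event of score 100 at 13676197 to 13676396, 759 bp inside the lower end. AtHY5 had one of score 217 at 13676098 to 13676297, 660 bp inside the same end. Within their lists they stood far apart, since 13.2% of AtPIF4 events but 79.1% of AtHY5 events scored lower. Their centres were 99 bp apart, at the edge of the 100 bp used for a pair. Another AtHY5 event, at 13674477 to 13674676 and 961 bp beyond the lower end, had a score of 65, and 5.78% of its list scored lower. BBX28 therefore had AtHY5 events at both extremes of the range over the 5 genes.

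At least 3 AtHY5 events fell in the window of 11.2% of all protein-coding genes, and at least 2 AtPIF4 events in that of 7.25%. Both together, with at least 2 pairs within 100 bp, were found at 509 genes, or 1.85%. Among the 16447 genes with an AtHY5 event, 8.28% had a highest score of 503 or more, while 44.8% of the 8656 genes with an AtPIF4 event had one of 165 or more. By its best score BBX28 stood high among genes with an AtHY5 event and near the middle of genes with an AtPIF4 event. This measure was not matched for the number of events per gene. All 5 of its events lay in no other protein-coding gene's window, a state whose share over the whole lists was not computed.

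More events continued past the window on the same side of BBX28. AtHY5 had a centre 2032 bp beyond the lower end, just outside the limit of 2000 bp, with a score of 220. Farther out, AtPIF4 (score 118) and AtHY5 (score 176) had centres 7 bp apart at 2667 and 2674 bp. These lie 457 and 450 bp from the neighbouring gene AT4G27300, and the AtHY5 event at 2032 bp lies 1092 bp from it. Each is thus nearer to AT4G27300 than to BBX28. The space between these genes measures 3123 bp and contains 2 AtPIF4 and 4 AtHY5 events.

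BBX29, on chromosome 5, had its pair on the higher-coordinate side. The AtPIF4 event, at 22115917 to 22116116, was centred 477 bp beyond that end with a score of 153, higher than 54.1% of its list. The AtHY5 event, at 22115828 to 22116027, was centred 388 bp beyond the same end with a score of 308, higher than 88.0% of its list. The centres were 89 bp apart, with AtHY5 nearer the gene, and the intervals shared 111 bp. On the lower-coordinate side a second AtHY5 event, at 22113179 to 22113378, lay 1026 bp from the gene with a score of 80, and 21.3% of the list scored lower. No event of either protein was centred inside BBX29.

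BBX28 and BBX29 each had a pair beyond a gene end, and BBX28 had its other pair inside the gene. Pairs beyond a gene end were also present at other B-box genes, such as BBX14, where the centres lay 470 bp (AtPIF4) and 472 bp (AtHY5) beyond the lower end and inside the neighbouring gene LBD42. The AtPIF4 event of BBX29 also falls within 2000 bp of the next gene, AT5G54480, which is farther from it. The AtHY5 event paired with it does not. Of the genes with an AtHY5 event, 17.8% had a highest score of 308 or more, and of those with an AtPIF4 event, 51.4% had one of 153 or more.

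**Figure D2:**
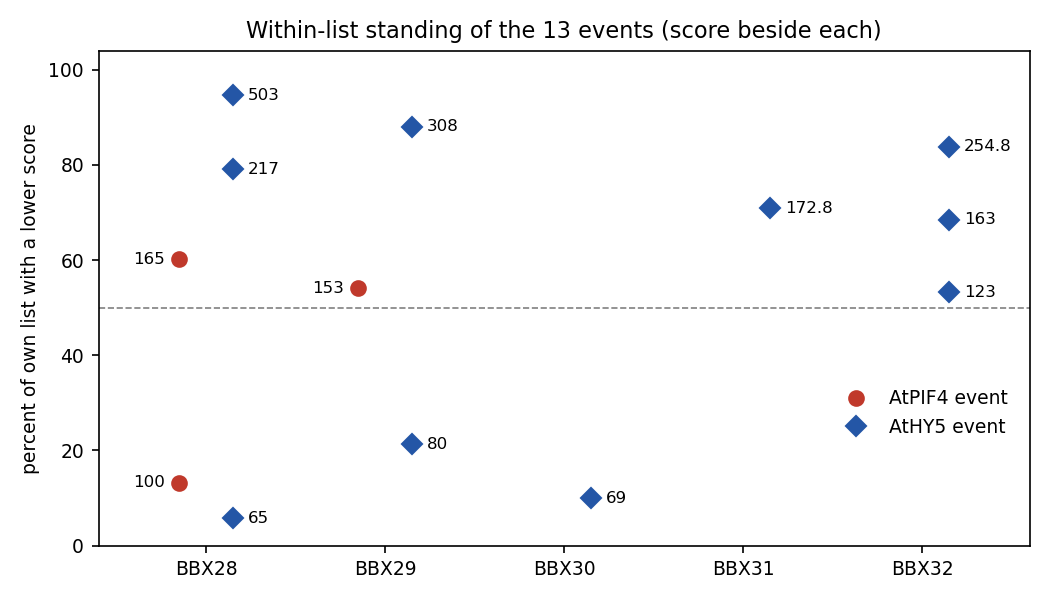
Points are the 3 AtPIF4 (circles, left) and 10 AtHY5 (diamonds, right) events in the gene or within 2000 bp of each of the 5 genes, with their scores beside them. The vertical axis is the percent of the protein's own list with a lower score, and the dashed line marks the middle of a list. AtHY5 events span 5.78% to 94.7%, and AtPIF4 events reach 60.2%.

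At the 2 genes for small proteins, AtHY5 had 1 event each and AtPIF4 had no event within 2000 bp. The AtHY5 event of BBX30, on chromosome 4 at 8708671 to 8708870, was centred 71 bp beyond the lower end, the nearest to a gene end among events outside the 5 genes. It was also among the weakest, with a score of 69 that exceeded 9.93% of the list. Among genes with an AtHY5 event, 94.6% had a highest score of 69 or more. The AtHY5 event of BBX31, on chromosome 3 at 7709363 to 7709562, was centred inside the gene, 471 bp from its higher end and 57.2% of the way along it. Its score of 172.8 exceeded 70.9% of the list, so BBX30 and BBX31 differed in both the place and the standing of their AtHY5 events. Exactly 1 AtHY5 event and no AtPIF4 event was the pattern of 21.3% of all genes.

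Each of these genes has a CONSTANS-like B-box gene next to it. BBX9 lies 284 bp beyond the higher end of BBX30, and BBX10 lies 486 bp beyond the lower end of BBX31. The single AtHY5 event of BBX30 is also the single event within 2000 bp of BBX9, from which it lies 997 bp away. BBX10 had 5 AtHY5 events and 1 AtPIF4 event in its own window, of which 1 AtHY5 event is the one inside BBX31 and 2 AtHY5 events lie inside CYCP2;1, a cyclin gene. The nearest of the others to BBX31 was centred inside BBX10, 2145 bp from BBX31 and just outside its window, with a score of 106. On that side the nearest AtPIF4 event to BBX31 lay 3861 bp away and 14 bp from CYCP2;1. Its score was 153, and an AtHY5 event of score 195.8 was centred 55 bp from it.

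BBX32, on chromosome 3, had 3 AtHY5 events and no AtPIF4 event, a pattern shared by 4.23% of all genes when counted as at least 3. The strongest, at 7412766 to 7412965, was centred 420 bp inside the lower end with a score of 254.8, higher than 83.8% of the list. A second, at 7413535 to 7413734, lay 93 bp inside the higher end with a score of 163, higher than 68.5%. At least 2 AtHY5 centres inside the gene were found for 8.36% of all genes, and for 5.93% of genes in the length range of the 5. The last, at 7410541 to 7410740, had a score of 123 and lay 1805 bp beyond the lower end, inside the neighbouring gene AT3G21140. This was the single event of the 13 that was nearer to another protein-coding gene than to the B-box gene.

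BBX32 lies in a tight stretch of genes. It overlaps AT3G21140 by 13 bp and is separated by 48 bp from MNS2, a gene for a mannosidase that trims glycans on proteins. All 3 of its AtHY5 events therefore lie in the windows of other genes as well. Over the 5 genes this held for 6 of the 13 events, while the other 7 lay in no other gene's window. Windows commonly shared events. Summed over all protein-coding genes, they held 11165 AtPIF4 and 28828 AtHY5 events, from lists of 6699 and 16825. The share of all events that lie in a single window was not computed.

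The distance to the nearest AtPIF4 event was longest for BBX32 among the 5 genes. It was 24597 bp for BBX32, 5585 bp for BBX30 and 3861 bp for BBX31, against a median of 4888 bp over all protein-coding genes. For 7.74% of all genes AtPIF4 was farther away than for BBX32, and for 46.4% and 55.7% it was farther than for BBX30 and BBX31. BBX30 and BBX31 were thus near the middle of all genes in this measure. For AtHY5 the nearest centre was inside BBX28, BBX31 and BBX32, 71 bp from BBX30 and 388 bp from BBX29, against a median of 1165 bp over all genes. An AtHY5 centre inside the gene was found for 30.3% of all genes.

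Each of the 3 AtPIF4 events at these genes had an AtHY5 centre within 100 bp, as did 47.3% of the whole AtPIF4 list. From the other side, 3 of the 10 AtHY5 events had an AtPIF4 centre within 100 bp, as did 19.8% of the whole AtHY5 list. None of the distances of 35, 89 and 99 bp was within 20 bp. Over both lists, 54.2% of the 3355 pairs within 100 bp lay within 20 bp (Wilson interval 52.6 to 55.9), and the other 45.8% lay between 21 and 100 bp (44.1 to 47.4). The pair 7 bp apart beyond the window of BBX28 was the single close one seen within 5000 bp of the 5 genes. AtHY5 lay on the higher-coordinate side of AtPIF4 in the pair of 35 bp and on the lower-coordinate side in the pairs of 89 and 99 bp.

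**Figure D3:**
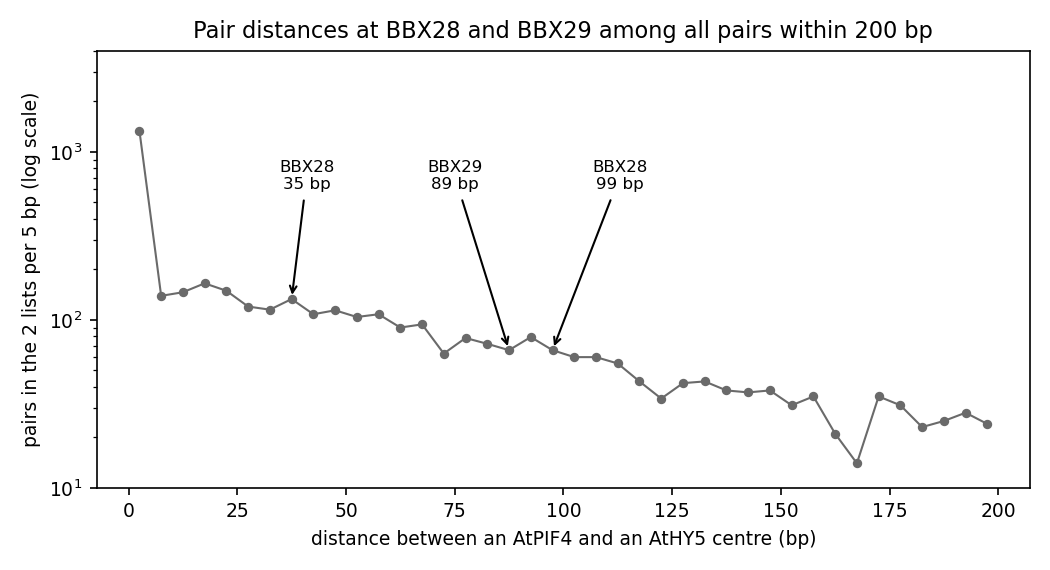
The line gives the number of AtPIF4 and AtHY5 pairs in the whole lists by the distance between their centres, in classes of 5 bp and on a log scale. Arrows mark the pairs of BBX28 (35 and 99 bp) and BBX29 (89 bp), which lie right of the peak at the shortest distances.

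The AtHY5 events that had AtPIF4 beside them scored 217, 308 and 503. The other 7 AtHY5 events of the 5 genes ran from 65 to 254.8 with a median of 123, so the ranges overlap. In the whole AtHY5 list the median score was 174 for events with AtPIF4 within 100 bp and 110.1 for those without. The order at the 5 genes is that of the list.

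The rest of the B-box family was taken as the 27 genes BBX1 to BBX27. AtPIF4 events were found at 2 of the 5 genes (40.0%) and at 19 of the 27 (70.4%). AtHY5 events were found at 5 of 5 and at 20 of 27 (74.1%). At BBX7, BBX10, BBX18, BBX19, BBX22 and BBX25, every AtPIF4 event in the window was nearer to another protein-coding gene. The same held for every AtHY5 event of BBX9, BBX19, BBX24 and BBX25. Neither was the case at any of the 5 genes, of which 2 had AtPIF4 events, or at the remaining B-box genes with events. The share of all protein-coding genes in this state was not computed. Both proteins were present at 2 of 5 and at 15 of 27, and a pair within 100 bp at 2 of 5 and at 9 of 27. With 5 genes in 1 library of each protein, no test of these differences was made. The counts were not matched for length. Of the 27, all but BBX4, BBX5, BBX23 and BBX26 are longer than BBX28, the longest of the 5, and have longer windows. The 8 genes BBX18 to BBX25, known for 2 B-boxes in tandem, had AtPIF4 at 5 and AtHY5 at 5, with both at 4. Of these 8, only BBX24 had an AtPIF4 event nearest to itself, and only BBX18 and BBX21 had such an AtHY5 event. In the 17 genes BBX1 to BBX17, which include CONSTANS, AtPIF4 was present at 12 and AtHY5 at 13. BBX26 and BBX27, which like the 5 genes encode proteins with a single B-box, both had events of AtPIF4 and of AtHY5. Neither protein had an event at BBX17, BBX20 or BBX23.

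The highest scores of the family were not at the 5 genes. For AtPIF4 they were 1115.2 at BBX5, 956 at BBX4 and 837 at BBX14, all CONSTANS-like genes, against 165 at BBX28. For AtHY5 they were 1648.6 at BBX4, 934.7 at BBX5 and 691.7 at BBX15, against 503 at BBX28. BBX4, also called COL3, is known to favour development in light. Its strongest AtPIF4 and AtHY5 events exceeded 98.4% and 99.5% of their lists.

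Likeness of pattern was measured as the distance between genes in their best within-list percents for AtPIF4 and AtHY5, over these 2 lists and the 15 other B-box genes with events of both. BBX16 was nearest to BBX28, at 17.5 percentage points, with scores of 219 for AtPIF4 and 360 for AtHY5. BBX10, the neighbour of BBX31, was nearest to BBX29, at 12.0 points, with scores of 153 and 195.8. BBX10 and BBX29 share the same best AtPIF4 score, and BBX16 differs from BBX28 mainly in AtPIF4, where it stands higher. Ranked by place in the deposited list, the AtPIF4 event of BBX29 stood above 70.2% of the list and that of BBX10 above 34.6%. Both of these best events of BBX10 were nearer to CYCP2;1 than to BBX10.

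**Figure D4:**
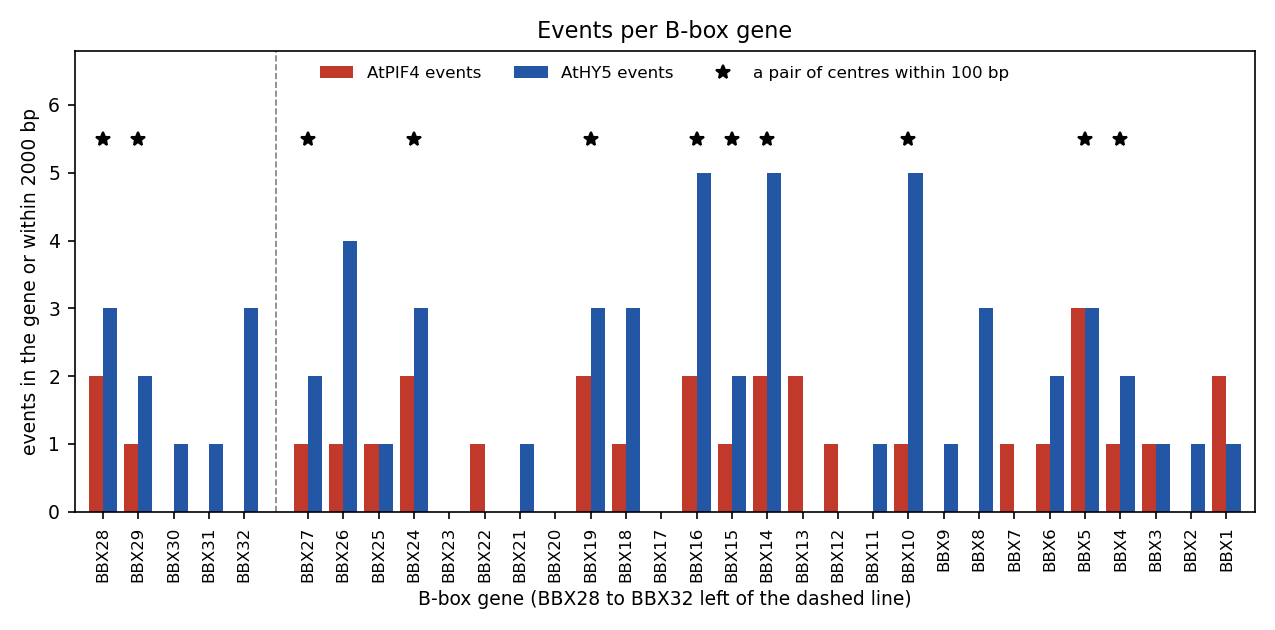
Bars give the number of AtPIF4 events (left bar) and AtHY5 events (right bar) in each B-box gene or within 2000 bp of it, with BBX28 to BBX32 left of the dashed line. Stars mark genes with an AtPIF4 and an AtHY5 centre within 100 bp, which are 2 of the 5 and 9 of the other 27.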

How the data were processed

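Trim Galore and Bowtie2 processed the reads, per the submitters' processing notes, and GEM called the events, per the file headers. Versions, and whether the input entered the calling, are not given in the sources used here. Both Arabidopsis lists were used as deposited: each event is an interval of 200 bp with its centre and a score from the authors' caller, of unstated unit and normalization. The score was ranked within each list, as the percent of events with a strictly lower score. The deposited Marchantia list was not used.

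Genes were matched by locus identifier to a RefSeq table of assembly TAIR10.1. The lists name TAIR10, so distances to genes are given and the table's own coordinates are not. As a check, 63.1% of AtPIF4 and 65.3% of AtHY5 centres lay inside protein-coding genes, against at most 56.4% and 57.9% after shifts of 1000 or 2000 bp. Each centre was assigned to every gene within 2000 bp (Python 3.11.15, pandas 2.3.3), so genes can share events. The counting was tested on simulated data.

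No p-value was computed. Counts over the 5 genes stand beside the share of all protein-coding genes that meet the same rule, with 95% Wilson intervals (scipy 1.17.1). Genes named are the 5, their neighbours, the 3 other B-box genes with the highest score of each protein, and the likest in pattern. BBX14 as an example of a pair, the B-box genes with no event, and those in the closing section were chosen after their values were seen. So were the B-box genes named for the nearest gene of their events or for their length. The 5 genes and the family list were chosen with earlier results of these data known. Alternatives covered the window, the pair distance, a score minimum, the nearest gene only, equal list lengths and rank by place in the list. No sequences were used here, so motif searches were not run.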

Additional observations from a re-analysis of the deposited data

How the results depend on the processing

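The counts of 2, 5, 2 and 2 of the 5 genes with AtPIF4, AtHY5, both and a pair within 100 bp were the same with windows of 500 and 1000 bp and with events given only to the nearest protein-coding gene. For the nearest-gene rule the share of all protein-coding genes was not computed, so those counts have no background here. With events above the median score of their list, 4 genes had AtHY5 (all but BBX30) and the other counts were unchanged. The shares of all protein-coding genes with AtPIF4, AtHY5, both and a pair moved to 18.7%, 39.8%, 13.2% and 9.46% at 500 bp, to 23.1%, 47.7%, 17.0% and 11.9% at 1000 bp, and to 17.5%, 37.2%, 11.6% and 7.97% above the median score, as fewer positions or events were admitted.

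The pair count depended on its distance. Within 20 bp it was 0 of the 5 genes against 10.3% of all genes, within 50 bp it was 1 (BBX28) against 13.8%, and within 200 bp it was 2 against 18.3%.

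The remaining alternatives were chosen after seeing the data. With the AtHY5 list cut to its 6699 highest scores, AtHY5 was at 4 of the 5 genes against 31.1% of all genes, both at 2 against 16.3%, and a pair at 2 against 10.5%. With 5000 bp, AtPIF4 was near 3 genes, AtHY5 near 5, both near 3 and a pair near 3, against 50.6%, 80.5%, 45.6% and 29.3%, the added gene being BBX31. Ranking by place in the deposited list, which does not strictly follow the score, moved 3 of the 13 events by over 10 percentage points, of which the BBX32 event 1805 bp away dropped by 25.3 points and the AtPIF4 event of BBX29 rose by 16.1 points.

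No paired analysis was possible because each protein has 1 library. Depth is unknown, so an absent event is not shown to be absent binding, and planned motif searches were not run.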

Other observations

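Among the genes next to the 5 B-box genes, AT4G27300 had an AtHY5 event inside it that lies in none of the 5 windows, with a score of 120. PHOS34, on the higher-coordinate side of BBX28, had 1 AtHY5 event of score 157, centred inside PHOS34 and 2956 bp from BBX28. Within 2000 bp of AT5G54460, the lower-coordinate neighbour of BBX29, lay 1 AtPIF4 event of score 181 and AtHY5 events of scores 168.5 and 136.5 on either side of it. All of these were centred inside the next gene, AT5G54450. AT3G21900, the higher-coordinate neighbour of BBX31, had an AtHY5 event of score 199 inside it. Another AtHY5 event in its window, of score 210, was centred inside AT3G21910. Besides the AtPIF4 event given for BBX29, AT5G54480 had an AtHY5 event of score 67 in its window, centred inside PBP1. The events near BBX9, AT4G15245 and MNS2 were those already given for BBX30 and BBX32.

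The family also held 4 genes with AtPIF4 and no AtHY5 event in the window, a state seen at none of BBX28 to BBX32: BBX7, BBX12, BBX13 and BBX22. BBX12 and BBX13 had their AtPIF4 centres inside the gene, with highest scores of 182 and 133.4. The AtPIF4 event near BBX7, of score 312.6, lay 944 bp beyond the gene and inside AT3G07660. The event near BBX22, of score 141, lay 970 bp away and inside NADK3. AtPIF4 without AtHY5 was found for 6.36% of all protein-coding genes. BBX26, the shortest of the other B-box genes at 756 bp, had 4 AtHY5 events and 1 AtPIF4 event in its window with no pair within 100 bp, and 2 of the AtHY5 events lay inside the neighbouring genes AT1G60240 and BGLU5. The genes of this paragraph were chosen after their values were seen.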
